A study of Mus musculus with 18 samples.

Results

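The data describe the step from 2 h to 4 h of treatment with dexamethasone, a synthetic glucocorticoid, in mouse bone marrow derived macrophages. Its members were chosen by title: the 3 arrays labelled 4 h were set against the 3 arrays labelled 2 h, 6 of the 18 arrays of the series. The whole series has 6 groups of 3 arrays, an untreated baseline and 1, 2, 4, 10 and 24 h of dexamethasone at 100 nM. All groups share their source: marrow of 3 male C57BL/6 mice, 10 weeks old, was differentiated for 1 week in 10% fetal calf serum with recombinant human CSF1 at 10000 U per ml, then replated in the same medium. The labels name no other agent and no genetic change, and they do not say which array came from which mouse. The p-values therefore measure the spread between arrays of the same group, pooled over the 6 groups, and not a known spread between mice. Both groups of the step had received dexamethasone, so no untreated array enters the contrast, and the labels name no untreated culture kept in parallel for 4 h.

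Dexamethasone enters the cell and binds the glucocorticoid receptor, which is held in the cytoplasm by chaperones. The bound receptor moves to the nucleus, where it raises some genes by binding DNA and lowers others, many of them controlled by NF-kappaB and AP-1. In macrophages glucocorticoids are known for lowering inflammatory genes and for raising genes of scavenging and of the uptake of dying cells. Direct targets can move within the first hour, while later changes can also follow from proteins made in between.

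Each value is the log2 of a deposited intensity from the brightest probe set of a gene, and 13190 genes were tested. Levels of different genes are not compared, because a probe set's brightness depends on its sequence. The arrays of 1 time correlated at r = 0.9962 to 0.9967 across genes, and arrays of different times at 0.9951 to 0.9967, so the step is small against the whole profile. On each array 73.2% to 74.4% of genes exceeded 3.86, a background level taken from control probe sets. Of 10 macrophage markers named on the array 9 were tested, and the other was left out with the evenly stepped values described under processing. All 9 lay above background at both times, with summed intensities of 25379 to 26102 at 2 h and 25292 to 26328 at 4 h. Csf1r, the receptor for CSF1, changed by -0.03 ± 0.05 (SE, adjusted p = 0.918), Adgre1 (F4/80) by -0.05 ± 0.05 (adjusted p = 0.778) and Cd68 by -0.01 ± 0.04 (adjusted p = 0.97). Mertk, a receptor for dying cells in the same list, rose by 0.76 (adjusted p = 1.39e-05), and the mean log2 intensity of the 9 genes was 10.82, 10.81 and 10.75 at 2 h and 10.88, 10.93 and 10.84 at 4 h, with no overlap. Mertk was the only call, and the median change of the 9 was -0.01, with 4 above 0 and 5 below. Among markers of other cells, 2 of 10 T and NK cell genes lay above background at each time, with summed intensities of 124 to 136 at 2 h and 131 to 135 at 4 h, and Cd3d and Cd3g lay below it. Of 7 B-cell genes 1 lay above background, with sums of 100 to 108 and 108 to 117, and Cd79a and Pax5 lay below it. Of 10 stromal genes none lay above background at 2 h and 1 at 4 h, with sums of 94.5 to 99.1 and 98.3 to 106, and Col1a1 and Dcn lay below it at both times. Of 8 mast cell and basophil genes 1 lay above background, with sums of 140 to 149 and 111 to 138, and Cpa3 and Mcpt4 lay below it. Of 5 dendritic cell genes 1 lay above background, with sums of 55.0 to 55.2 and 51.5 to 61.0, and of 6 erythroid genes 3 at 2 h and 4 at 4 h, with sums of 2282 to 3099 and 2223 to 2786. Of 10 neutrophil markers 8 lay above background at each time, with summed intensities of 951 to 1010 at 2 h and 770 to 1092 at 4 h, while Elane and Cxcr2 lay below it. The 3′ to 5′ difference of Gapdh, a sign of RNA integrity, was 0.059 to 0.197 at 2 h and 0.173 to 0.213 at 4 h, with 2 h replicate 1 the low one. That of Actb was 0.407 to 0.445 at 2 h and 0.403 to 0.458 at 4 h, and there 2 h replicate 1 was the highest of its group. Hba-a1, a haemoglobin chain, went from 3.42 ± 0.03 to 4.04 ± 0.14 (SD, n = 3), which straddles the background, and it is counted among the rises. Its other probe sets, below background, went from 3.15 to 3.16 and from 3.08 to 2.99.

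In the step, 153 genes rose and 98 fell at an adjusted p under 0.05 in limma (called genes), 1.16% and 0.743% of the 13190 tested (1.90% together). An unadjusted p under 0.05 was reached by 1486 genes. Most changes were small: 7 rises and 2 falls were at least 1 on the log2 scale, a fold of 2.0, while 58 rises and 22 falls were at least 0.5. The median rise was 0.43 and the median fall -0.36, against -0.01 over all tested genes. In 152 of the 153 rises every array at 4 h lay above every array at 2 h, and in 97 of the 98 falls below. Over all tested genes 8.05% lay wholly above and 8.79% wholly below, so separation of 3 arrays from 3 was common without a call. The count of calls depended on single arrays: leaving out replicate 1, 2 or 3 of the 2 h group gave 160, 144 and 168, and leaving out replicate 1, 2 or 3 of the 4 h group gave 143, 137 and 167. In each of those fits 94 of the genes, 64 rises and 30 falls, were called. By rule 81 genes are named, 74 of them called, and 36 of the 74 calls were present without each array in turn. A test against a change of 1.2-fold called 20 genes, 14 rises and 6 falls.

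**Figure D1:**
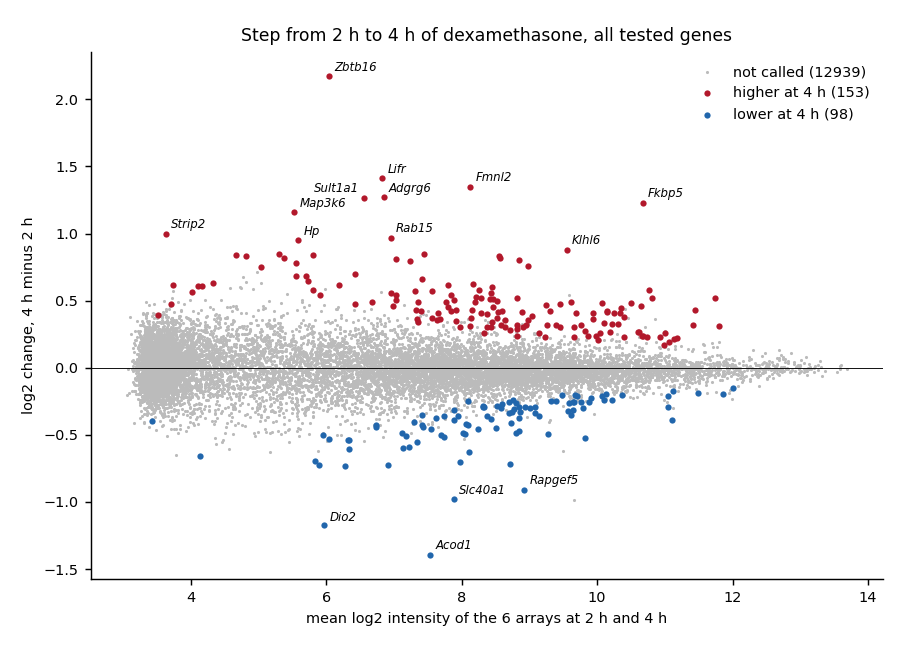
Each point is 1 of the 13190 tested genes, with the mean log2 intensity of the 6 arrays on the horizontal axis and the log2 change from 2 h to 4 h on the vertical axis; red and blue points are the 153 rises and 98 falls, and the largest changes are named. Zbtb16 stands highest at 2.17 and Acod1 lowest at -1.39, and called genes occur across the range of brightness.

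The largest rise was that of Zbtb16, a zinc finger transcription factor. It measured 4.83, 4.67 and 5.37 at 2 h and 6.62, 7.44 and 7.33 at 4 h, a change of 2.17 ± 0.26 (SE), or 4.51-fold, with an adjusted p of 1.54e-05. The groups were apart, and its second probe set moved by 1.25. Lifr, the receptor chain for leukaemia inhibitory factor, measured 6.22, 5.79 and 6.32 at 2 h and 7.37, 7.50 and 7.70 at 4 h, a change of 1.41 ± 0.17 (adjusted p = 1.39e-05). Fmnl2, a formin that builds actin filaments, went from 7.59, 7.46 and 7.31 to 8.78, 8.90 and 8.72, a change of 1.35 ± 0.12 (adjusted p = 2.41e-07). In both genes every array at 4 h was higher than every array at 2 h.

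Fkbp5, a co-chaperone that lowers the receptor's affinity for hormone, had the smallest p of the step. It measured 10.11, 9.99 and 10.08 at 2 h and 11.23, 11.33 and 11.29 at 4 h, a change of 1.23 ± 0.07 (adjusted p = 6.46e-11). Adgrg6, an adhesion G protein-coupled receptor, went from 6.45, 5.95 and 6.23 to 7.50, 7.46 and 7.48, a change of 1.27 ± 0.13 (adjusted p = 2.76e-06). Its 3 arrays at 4 h were close together, with an SD of 0.02, while those at 2 h had an SD of 0.25. Sult1a1, a sulfotransferase of phenols and steroids, went from 5.84, 6.01 and 5.93 to 6.92, 7.30 and 7.36, a change of 1.27 ± 0.15 (adjusted p = 1.39e-05). Map3k6, a kinase at the head of a MAP kinase cascade, went from 5.01, 4.85 and 4.97 to 6.11, 6.17 and 6.03, a change of 1.16 ± 0.15 (adjusted p = 4.19e-05). None of these genes had overlapping groups.

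The other 5 of the 12 largest rises were Strip2, Rab15, Hp, Klhl6 and Abcd2. Strip2, a subunit of the STRIPAK phosphatase complex, was below background at 2 h (2.96, 3.17 and 3.24) and just above it at 4 h (4.09, 4.08 and 4.20), a change of 1.0 ± 0.14. Rab15, a small GTPase of endocytic recycling, rose by 0.97 ± 0.17 and Klhl6, a kelch protein, by 0.88 ± 0.08. Hp, the haemoglobin binder haptoglobin, measured 5.18, 4.73 and 5.42 and then 6.02, 5.73 and 6.43, a change of 0.95 ± 0.19 (adjusted p = 0.0061). Abcd2, a peroxisomal transporter of very long fatty acids, rose by 0.85 ± 0.20 (adjusted p = 0.0206). The calls of Hp and Abcd2 were the less firm ones: leaving out single arrays took their adjusted p up to 0.065 and 0.109.

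The largest fall was that of Acod1, the enzyme that makes itaconate from a citric acid cycle intermediate. It measured 8.06, 8.27 and 8.35 at 2 h and 6.69, 6.72 and 7.08 at 4 h, a change of -1.39 ± 0.11 (2.62-fold lower, adjusted p = 2.76e-08). Dio2, the deiodinase that makes active thyroid hormone, went from 6.80, 6.23 and 6.64 to 5.59, 5.17 and 5.40, a change of -1.18 ± 0.18 (adjusted p = 0.000343). Slc40a1, the iron exporter ferroportin, went from 8.29, 8.55 and 8.26 to 7.17, 7.58 and 7.42, a change of -0.98 ± 0.14 (adjusted p = 0.000135). All 3 genes had groups that did not overlap, and a second probe set of Slc40a1 moved by -0.90. Rapgef5, an exchange factor for Rap GTPases, was the most even: 9.37, 9.38 and 9.37 at 2 h and 8.39, 8.56 and 8.43 at 4 h, a change of -0.91 ± 0.06 (adjusted p = 7.15e-10).

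Of the other 8 among the 12 largest falls, 4 encode transcription factors. Ets2, an ETS factor downstream of growth factor signals, went from 8.96, 9.11 and 9.12 to 8.19, 8.54 and 8.31, a change of -0.72 ± 0.08 (adjusted p = 9.53e-06). Creb5, a leucine zipper factor, went from 6.59, 6.59 and 6.72 to 6.05, 5.81 and 5.86, a change of -0.73 ± 0.13 (adjusted p = 0.00224). Hivep3, a large zinc finger protein, fell by 0.73, but a second probe set above background moved by 0.07, and its adjusted p was 0.0506 without 1 of the arrays. Ets1 fell by 0.65 to 3.80 ± 0.23, below background, and its call was lost when any 1 of the 6 arrays was left out (adjusted p up to 0.272). Plau, the urokinase that activates plasminogen, measured 8.62, 8.13 and 8.23 and then 7.74, 7.79 and 7.34, a change of -0.70 ± 0.13, and its second probe set moved by -0.70 too. Adgrl2, an adhesion receptor, fell by 0.63 (adjusted p = 9.13e-06). Fcrl1, an Fc receptor-like protein of B cells, and the uncharacterised 4632427E13Rik fell by 0.69 and 0.73, each with an adjusted p above 0.05 in 5 of the 6 fits with an array left out.

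**Figure D2:**
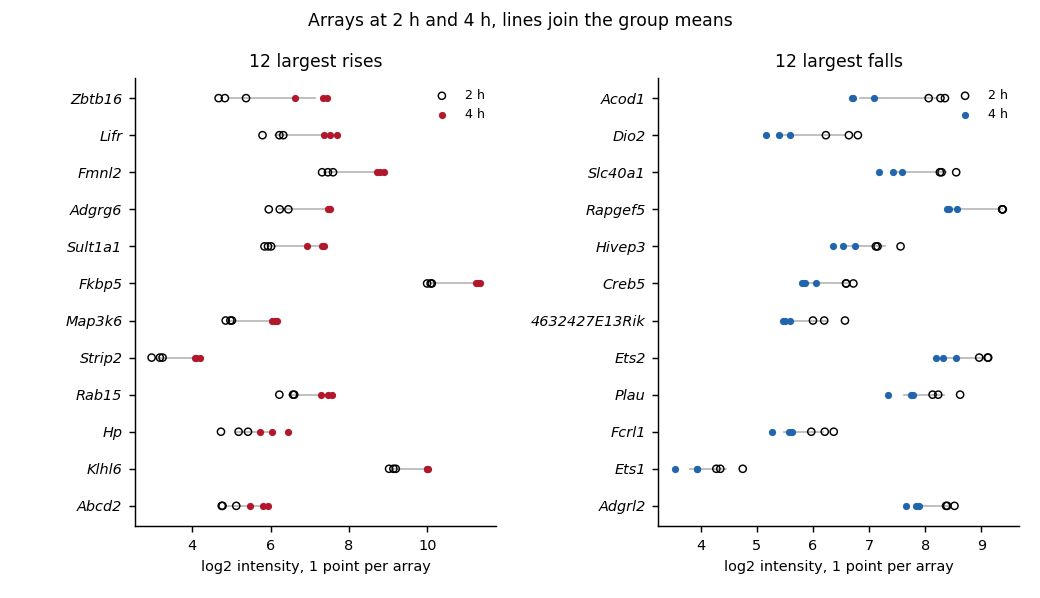
Log2 intensities on each array at 2 h (open circles) and 4 h (filled) are shown for the 12 largest rises (left) and the 12 largest falls (right), with a line joining the group means. Every gene has its 3 arrays at 4 h on one side of its 3 at 2 h, and Fkbp5, Klhl6 and Rapgef5 have the tightest groups.

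Promoter sequence was available for 122 of the 153 rises and 82 of the 98 falls, from RefSeq on GRCm38.p6. Windows of 250 bases before to 50 after each start were searched on both strands for 4 motifs: ACANNNTGT (the core of the receptor's binding element), TGANTCA (AP-1), CACGTG (E-box) and a consensus of NF-kappaB. ACANNNTGT was in 9.30% of 172 windows of rises, 3.70% of 108 windows of falls and 4.67% of 13447 windows of all tested genes. The share for rises was 5.88% for the genes called with no intensity trend in the fit. TGANTCA was in 8.72%, 9.26% and 5.70%, CACGTG in 11%, 10.2% and 9.36%, and the NF-kappaB consensus in 0.581%, 0% and 0.446%. Glucocorticoid receptor sites are often far from starts, and these windows hold only the letters near them. The 250 bases before the start of 5 of the largest rises and falls that hold a motif are printed from 5′ to 3′ on the gene's strand, with the motif in capitals, to show what was matched. They are chr4:133240568-133240817 (plus strand, inside the gene and before a later start, ACANNNTGT), chr17:28486150-28486399 (minus strand, CACGTG), chr12:76818375-76818624 (minus strand, before a later start of the gene, TGANTCA), chr6:53287053-53287302 (plus strand, CACGTG) and chr3:87376137-87376386 (plus strand, TGANTCA). The Creb5 and Fcrl1 stretches run past the first base of the gene, at 53287226 and 87376353. The Creb5 match lies after that base, inside the gene, and the Fcrl1 match lies before it.
Map3k6: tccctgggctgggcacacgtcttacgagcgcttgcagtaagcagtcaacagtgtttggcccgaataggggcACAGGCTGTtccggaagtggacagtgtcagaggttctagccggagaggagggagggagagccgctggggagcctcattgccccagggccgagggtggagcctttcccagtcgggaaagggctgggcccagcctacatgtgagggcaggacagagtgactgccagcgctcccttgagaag
Fkbp5: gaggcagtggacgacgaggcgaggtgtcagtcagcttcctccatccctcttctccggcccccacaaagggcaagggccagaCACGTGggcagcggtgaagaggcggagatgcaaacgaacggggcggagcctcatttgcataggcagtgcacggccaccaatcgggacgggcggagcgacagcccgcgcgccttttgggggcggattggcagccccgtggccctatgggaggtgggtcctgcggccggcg
Rab15: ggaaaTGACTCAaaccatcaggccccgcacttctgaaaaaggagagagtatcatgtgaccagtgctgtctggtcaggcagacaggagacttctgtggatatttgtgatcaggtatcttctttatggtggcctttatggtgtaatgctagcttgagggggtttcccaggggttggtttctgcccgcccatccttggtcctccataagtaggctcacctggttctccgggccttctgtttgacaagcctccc
Creb5: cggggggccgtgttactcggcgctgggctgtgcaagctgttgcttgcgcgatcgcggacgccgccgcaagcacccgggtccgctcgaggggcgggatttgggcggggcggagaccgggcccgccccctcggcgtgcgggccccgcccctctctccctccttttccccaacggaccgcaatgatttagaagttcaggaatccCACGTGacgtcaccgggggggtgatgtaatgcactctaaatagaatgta
Fcrl1: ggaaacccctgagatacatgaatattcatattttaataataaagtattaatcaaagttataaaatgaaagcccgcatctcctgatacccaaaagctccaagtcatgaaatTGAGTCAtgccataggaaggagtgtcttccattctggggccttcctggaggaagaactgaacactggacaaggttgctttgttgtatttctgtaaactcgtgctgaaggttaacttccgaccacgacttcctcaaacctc
Counted from the start, the match began at -179 in Map3k6, -169 in Fkbp5, -245 in Rab15, -49 in Creb5 and -140 in Fcrl1. A match here is a run of letters, and no binding was measured.

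Beyond the largest changes, 48 lists of genes were read, of which 15 held no call, 16 only rises, 9 only falls and 8 both. They hold 1033 tested genes, of which 34 rose and 24 fell. Over all 13190 tested genes 1.16% rose and 0.743% fell, and every list count below is to be read beside these shares. The lists were chosen with earlier results of these data known, so their counts are a description. Among 29 tested targets of the receptor, 5 rose and none fell: Zbtb16, Fkbp5, Cd163, Mertk and Klf9. Their list had a median change of 0.07, with 20 members above 0, and the receptor gene Nr3c1 itself changed by -0.10 ± 0.08 (adjusted p = 0.749). 3 early targets had no call in the step. Dusp1, the phosphatase that switches off p38 and JNK, measured 11.84, 11.72 and 11.79 at 2 h and 11.68, 12.03 and 11.77 at 4 h, a change of 0.04 ± 0.09. Per1, a clock repressor, changed by -0.11 ± 0.10 and Tsc22d3, which encodes GILZ, by 0.14 ± 0.06 (adjusted p = 0.757 and 0.352). Against baseline at 1 h, in arrays that are not part of the step, the same 3 genes were already higher by 3.36, 2.10 and 1.80. Zbtb16 and Fkbp5 were at 0.10 and 0.14 there, with no call (adjusted p = 0.999 for both).

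Among the receptor's partners, Ncoa2, a coactivator that also takes part in its repression of inflammatory genes, was the second of 19 tested members to rise after Fkbp5. It measured 8.61, 8.50 and 8.56 at 2 h and 9.05, 9.06 and 9.11 at 4 h, a change of 0.52 ± 0.07 (adjusted p = 0.000126). A second bright probe set of Ncoa2 moved by 0.44 and a dim one by -0.11. The other members had no call, and 9 of the 19 were above 0.

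Transcription factors of the Kruppel-like and zinc finger repressor list gave 4 rises and no fall among 18 tested. Besides Zbtb16 they were Klf9 (0.46 ± 0.07), Bcl6 (0.45 ± 0.10) and Klf3 (0.36 ± 0.07). Klf9 went from 10.48, 10.33 and 10.47 to 10.88, 10.83 and 10.95 (adjusted p = 0.000152), with no overlap. Bcl6, a repressor that restrains NF-kappaB genes, went from 8.38, 8.18 and 8.17 to 8.78, 8.80 and 8.50. Its level at 4 h, 8.69 ± 0.17 (SD, n = 3), was that of the baseline arrays, 8.70 ± 0.13, and its call was lost without single arrays (adjusted p up to 0.11). For Klf3 the probe set that varies most moved by -0.02. Among 25 immediate-early factors Jun rose by 0.36 ± 0.09 (adjusted p = 0.0264, up to 0.204 without single arrays), and 21 of the 25 were above 0. The list mean was 6.78, 6.88 and 6.81 at 2 h and 6.83, 7.06 and 6.86 at 4 h, so 4 h replicate 2 was the high one. Maf, a factor of mature macrophages, went from 9.43, 9.53 and 9.50 to 9.90, 9.87 and 9.92, a change of 0.41 ± 0.07 (adjusted p = 0.00132). Arntl, the clock activator BMAL1, rose by 0.49 ± 0.11, the only call among 19 clock genes, and its adjusted p reached 0.0754 without single arrays.

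Cytokine receptors gave 4 rises and no fall among 29 tested. Lifr led, followed by Il18rap, the accessory chain for interleukin 18, which went from 5.06, 4.84 and 5.0 to 5.93, 5.64 and 5.77 (0.81 ± 0.16, adjusted p = 0.00505). Il6ra, the interleukin 6 receptor, rose by 0.43 ± 0.11 and Tgfbr1, a kinase chain of the receptor for TGF-beta, by 0.26 ± 0.05. The Il6ra call was lost without single arrays (adjusted p up to 0.176). Il6st, the shared signalling chain gp130, moved by 0.17 with no call, and 15 of the 29 receptors were above 0. The cytokines themselves gave no call among 22 tested: Tnf changed by -0.05, Il1b by 0.11 at a level of 3.81 to 3.92 near background, and the list ran from -0.30 to 0.25. None of 35 interferon-stimulated genes and none of 26 SOCS and JAK-STAT genes was called.

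Of 23 chemokines only Ccl4, an attractant of monocytes and T cells, was called. It measured 9.52, 9.17 and 9.43 at 2 h and 9.81, 10.10 and 9.68 at 4 h, a rise of 0.49 ± 0.12 (adjusted p = 0.0399, up to 0.284 without single arrays). The baseline level was 10.27 ± 0.13 (SD, n = 3), so at 4 h Ccl4 had a mean of 9.86 ± 0.21. Its neighbours Ccl2, Ccl3 and Ccl7 measured 0.37, 0.44 and 0.54 with no call (adjusted p = 0.0529, 0.0593 and 0.19), while Cxcl10 measured -0.48 and Ccl12 -0.42 with overlapping arrays. Among 32 chemoattractant and other G protein-coupled receptors Cx3cr1, the fractalkine receptor, fell by 0.60 ± 0.14 and Gpr84, a receptor for medium-chain fatty acids, by 0.43 ± 0.10. Cx3cr1 went from 6.72, 6.53 and 6.67 to 5.85, 5.93 and 6.34. Both calls were lost without single arrays, with adjusted p up to 0.121 and 0.197.

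Toll-like receptors moved in both directions. Tlr2, which recognises bacterial lipopeptides at the cell surface together with Tlr1 or Tlr6, measured 8.92, 9.07 and 9.13 at 2 h and 8.41, 8.65 and 8.60 at 4 h. It fell by 0.49 ± 0.08 (adjusted p = 0.000631), and Tlr1 fell by 0.49 ± 0.13 (adjusted p = 0.0488). Tlr7, an endosomal receptor for single-stranded RNA, measured 9.82, 9.82 and 9.88 and then 10.30, 10.41 and 10.25. It rose by 0.48 ± 0.07 (adjusted p = 0.000113), and its relative Tlr8 rose by 0.70 ± 0.16 (adjusted p = 0.0224). The Tlr2 and Tlr7 calls were present without each array in turn, while those of Tlr1 and Tlr8 were lost without some (adjusted p up to 0.247 and 0.141). Tlr4, the receptor for lipopolysaccharide, changed by -0.03, Tlr6 by -0.12 and Tlr9 by -0.12, with no call. The remaining signalling genes of the 22 had no call. In the NF-kappaB list 1 of 22 was called: Nfkbie, the inhibitor IkappaB epsilon, went from 7.28, 7.75 and 7.50 to 6.87, 7.11 and 6.80 (-0.59 ± 0.12, adjusted p = 0.00977, up to 0.0996 without single arrays). Of the 22, 16 were below 0, with a median of -0.09, while Nfkbia (0.02) and Tnfaip3 (0.07) were near 0.

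The MS4A genes, which encode membrane-spanning proteins found on macrophages, gave 4 rises and no fall among 8 tested. Ms4a4b went from 4.26, 4.34 and 4.13 to 4.78, 5.44 and 5.04 (0.84 ± 0.16, adjusted p = 0.00464), Ms4a6b rose by 0.58 ± 0.13, Ms4a6d by 0.43 ± 0.06 and Ms4a6c by 0.42 ± 0.11. Ms4a6d was the steadiest, with 11.05, 11.34 and 11.30 at 2 h and 11.63, 11.70 and 11.65 at 4 h. Ms4a4c measured 0.37 with overlapping arrays and no call, and Ms4a7, a bright gene at 11.82, changed by -0.05. The list mean was 7.51, 7.68 and 7.51 at 2 h and 7.79, 8.04 and 7.87 at 4 h, with no overlap. These genes are close relatives, and probe sets for 1 may take signal from another. The calls of Ms4a4b, Ms4a6b and Ms4a6c were lost without single arrays (adjusted p up to 0.0577, 0.0989 and 0.24), and a dim second probe set of Ms4a6c moved by -0.19.

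Genes of haemoglobin and iron handling moved in both directions. Cd163, the scavenger receptor that takes up haemoglobin bound to haptoglobin, measured 4.36, 4.36 and 4.49 at 2 h and 5.11, 5.05 and 5.54 at 4 h. It rose by 0.83 ± 0.15 (adjusted p = 0.00299) beside Hp, which encodes that haptoglobin, while Slc40a1, which exports the iron, fell. These were the 3 calls among 24 scavenger and iron genes, whose median was 0.01. Mertk, the receptor kinase by which macrophages recognise dying cells, went from 8.71, 8.59 and 8.49 to 9.38, 9.31 and 9.38. Its rise of 0.76 ± 0.09 (adjusted p = 1.39e-05) was the only call among 25 genes of apoptotic cell uptake. F13a1, the A subunit of coagulation factor XIII, went from 5.06, 5.17 and 5.39 to 6.08, 5.85 and 5.74 (0.68 ± 0.13, adjusted p = 0.00317), and with the fall of Plau it made up the 2 calls among 17 coagulation genes. Clec7a, the beta-glucan receptor dectin-1, fell by 0.42 ± 0.10 and Cd300ld by 0.20 ± 0.05. Both, with Fcrl1, belong to a list of 28 Fc receptors and lectins with 3 falls and no rise, and all 3 calls were lost without single arrays (adjusted p up to 0.205, 0.178 and 0.191).

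In lipid metabolism, 3 of 28 genes of uptake, storage and efflux rose and none fell. Lpin1, a phosphatidate phosphatase, rose by 0.54 ± 0.11 (adjusted p = 0.0055, up to 0.0548 without single arrays), Fabp4, a fatty acid carrier, by 0.52 ± 0.07, and Npc1, which exports cholesterol from lysosomes, by 0.38 ± 0.06. Npc1 measured 10.11, 10.29 and 10.21 and then 10.59, 10.59 and 10.56 (adjusted p = 0.000795). Fabp4 measured 11.46, 11.43 and 11.56 and then 12.04, 12.08 and 11.90, but its probe sets disagreed: another bright one moved by 0.36 and a dim one by -0.66. Of 28 genes of cholesterol and fatty acid synthesis none was called. Their median was -0.22 and 25 were below 0, with Insig1, a sterol-sensing regulator, at -0.62 ± 0.23 (adjusted p = 0.226) and Elovl6, a fatty acid elongase, at -0.52 ± 0.24 (adjusted p = 0.423). Over all tested genes 6879 of 13190 were below 0. The list mean was 8.72, 8.38 and 8.92 on replicates 1 to 3 at 2 h and 8.52, 8.16 and 8.74 on those at 4 h. The 2 times overlapped, and replicate 2 was the lowest of its group in all 6 groups. Between same-numbered arrays the list mean differed by -0.20, -0.22 and -0.18. With replicate number added to the fit, 10 of the 28 genes were called lower and 0 higher. The 25 respiratory chain and 23 ribosomal protein genes held no call, and their medians were 0 and 0.01.

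Genes of DNA replication lay mostly below 0. Of 34 tested, 3 fell and none rose, 31 were below 0 and the median was -0.11. Mcm2, a subunit of the replicative helicase, went from 8.59, 8.53 and 8.52 to 8.20, 8.18 and 8.19 (-0.36 ± 0.07, adjusted p = 0.0068). Mcm4, another subunit, went from 9.78, 9.79 and 9.80 to 9.49, 9.38 and 9.57 (-0.31 ± 0.06, adjusted p = 0.00278). Uhrf1, which maintains DNA methylation, fell by 0.29 ± 0.07, a call lost when any 1 of the 6 arrays was left out (adjusted p up to 0.168). The list mean was 8.81, 8.87 and 8.83 at 2 h and 8.72, 8.63 and 8.75 at 4 h, with no overlap. Of 31 mitosis genes none was called, although 30 were below 0 with a median of -0.09, and their mean of 9.31, 9.27 and 9.39 at 2 h overlapped 9.23, 9.10 and 9.33 at 4 h. The brakes Cdkn1b, which encodes p27, and Mxd4, an antagonist of Myc, rose by 0.35 ± 0.09 and 0.34 ± 0.09, but both calls were lost when any 1 of the 6 arrays was left out (adjusted p up to 0.222 and 0.193). In the cell death list Bcl2 fell by 0.44 ± 0.09 and its relative Bcl2l2 by 0.51 ± 0.13, both survival genes and the only calls of 24 (adjusted p up to 0.102 and 0.309 without single arrays). In bulk RNA, fewer cells of a kind and less RNA per cell cannot be told apart.

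**Figure D3:**
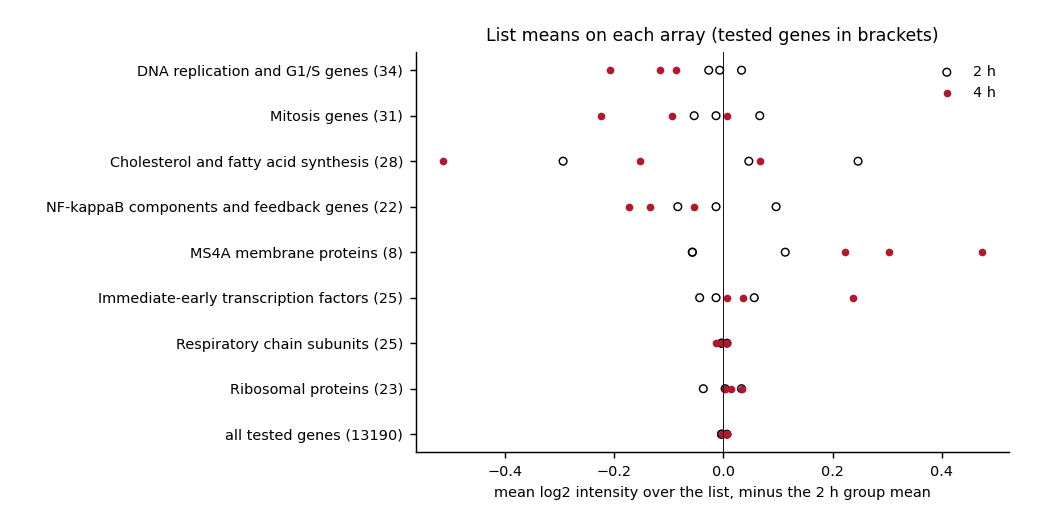
Points give the mean log2 intensity over the tested genes of a list on each array at 2 h (open) and 4 h (filled), minus the mean of the 3 arrays at 2 h, with the number of tested genes in brackets. The replication and MS4A lists are apart at the 2 times, and the respiratory chain, ribosomal and all-gene means stay near 0. In the cholesterol list the 2 times overlap, although each replicate number was lower at 4 h.

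Single calls marked several other lists. Dusp6, the phosphatase of ERK, went from 10.22, 10.03 and 10.16 to 10.44, 10.72 and 10.57 (0.44 ± 0.06, adjusted p = 0.00017), the only call among 19 phosphatases and MAP kinase feedback genes. Txnrd1, thioredoxin reductase, fell by 0.23 ± 0.05, Ern1, the stress sensor IRE1, by 0.51 ± 0.12, and the hyaluronan receptor Cd44 by 0.20 ± 0.05. Nrp2, a co-receptor for semaphorins and VEGF, fell by 0.25 ± 0.06. Each of these 4 calls was lost in 3 or more of the 6 fits with 1 array left out (adjusted p up to 0.0973, 0.148, 0.198 and 0.139). Mmp19, a metalloproteinase, rose by 0.58 ± 0.15 and Rgs18, a brake on G protein signals, by 0.24 ± 0.06 (up to 0.223 and 0.235). In the actin list Dock10 rose by 0.51 ± 0.12, the single rise with overlapping arrays, while Marcksl1 fell by 0.36 ± 0.07 and Dock8 by 0.34 ± 0.07. The Dock10 and Dock8 calls were lost without single arrays (up to 0.153 and 0.129), and a dim probe set of Dock8 moved by 0.02. Of 153 called genes with another probe set, 183 further probe sets lay above background, of which 168 moved the same way and 15 the other way, 8 of them by over 0.1.

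The rest of the time course shows where the step lies, here as each group's own level. Of the 153 rises, 66 had their highest group mean at 4 h, 64 at 10 h and 19 at 24 h, while over all tested genes the shares were 15.4%, 19.8% and 20.6%. Of the 98 falls, 59 had their lowest mean at 4 h, 28 at 10 h and 11 at 24 h, while over all tested genes the shares were 15.5%, 18.8% and 19.5%. The step chose these genes for being high or low at 4 h, so those counts are a description. Slc40a1 dipped: its means were 8.78 ± 0.20 at baseline, 8.64 ± 0.16 at 1 h, 8.37 ± 0.16 at 2 h, 7.39 ± 0.21 at 4 h, 8.15 ± 0.37 at 10 h and 8.69 ± 0.13 at 24 h (SD, n = 3). Ets2 stood at 9.52 at baseline, 8.35 at 4 h and 9.27 at 24 h, and Tlr2 at 9.01, 8.55 and 9.37. Acod1 and Dio2 stayed low, with Dio2 at 7.06 at baseline, 5.38 at 4 h and 4.37 at 24 h. Dapk1, a death-associated kinase that the naming rule did not pick and that was singled out after its values were seen, peaked at 4 h: 6.79, 6.63, 6.84, 7.63, 6.81 and 6.79 from baseline to 24 h. Among rises, 14 had their lowest mean at 2 h, 9.15% beside 10.6% of all tested genes, and in 4 of them, Ccl4, Rasgef1b, Bcl6 and Hhex, the baseline was the highest group. Rasgef1b, an exchange factor for small GTPases, went from 8.98 at baseline to 7.96 at 2 h and 8.44 at 4 h (adjusted p of the step = 0.0117, up to 0.119 without single arrays). Its mean at 4 h was still below baseline.

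**Figure D4:**
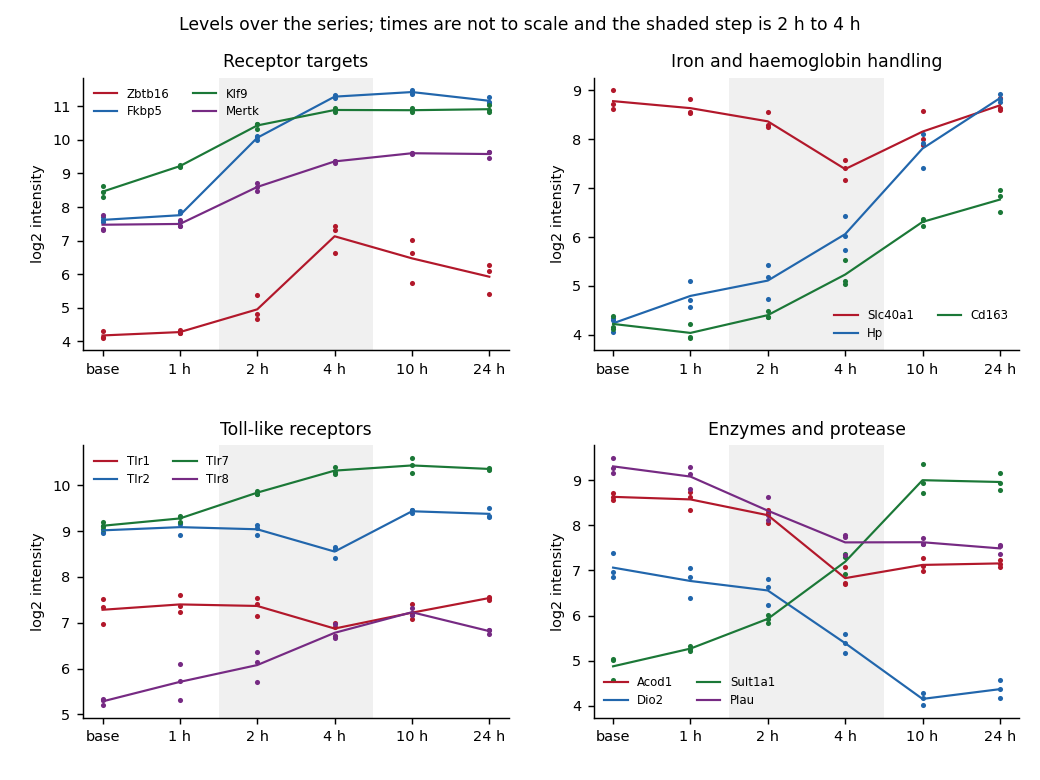
Log2 intensities of 15 genes in the 6 groups, with a point per array and lines through the group means; the horizontal axis is not to scale in time, and the step is shaded. Slc40a1, Tlr1 and Tlr2 are lowest at 4 h, Zbtb16 is highest there, and Hp, Cd163 and Sult1a1 go on to higher levels at 10 h and 24 h.

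A set of comparisons from the same fit takes its changes from no array of 2 h or 4 h. Each gene has the same standard error in all comparisons, so step calls favour genes that are easier to call elsewhere. The shares of all tested genes, here and in the next paragraph, are therefore no even comparator for the shares called. Direction does not rest on the standard error. At 24 h against baseline 143 of the 153 rises lay above 0, beside 6952 of all 13190 tested genes. Of the 98 falls 83 lay below 0, beside 6238 of all tested genes. At 24 h against baseline, 122 of the 153 rises were called higher, 79.7%, beside 7.38% of all tested genes; they make up 12.5% of the 973 genes called higher there. Of the 98 falls, 46 were called lower, 46.9%, beside 5.34% of all tested genes, and they make up 6.52% of the 705 called lower. The rises had a median of 0.59 at 24 h, with F13a1 at 5.44 ± 0.13, Hp at 4.6 ± 0.19, Sult1a1 at 4.09 ± 0.15, Ms4a4b at 3.86 ± 0.16 and Lifr at 3.65 ± 0.17 at the top. Dio2 led the falls with -2.70 ± 0.18, followed by Clec7a with -2.11 ± 0.10, Plau with -1.82 ± 0.13 and Acod1 with -1.48 ± 0.11. The opposite direction at 24 h was called for 4 genes. Rasgef1b and Hhex, a homeobox factor, rose in the step and were lower than baseline at 24 h by 0.38 each (adjusted p = 0.0161 and 0.00383). Tlr2 and Lcp2, an adaptor of immune receptor signals, fell in the step and were higher at 24 h, by 0.36 and 0.29 (adjusted p = 0.00214 and 0.00492). The step calls of Hhex and Lcp2 were lost without single arrays (adjusted p up to 0.253 and 0.0952).

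At 1 h against baseline 5 of the 153 rises were called higher, 3.27%, beside 0.303% of all tested genes and out of 40 called there. They were Sla, an adaptor that dampens receptor signals, Cytip, Klf9, Jdp2 and Pex13. Sla was higher by 0.81 at 1 h, and it went from 10.56, 10.46 and 10.61 to 11.05, 11.01 and 11.13 in the step (0.52 ± 0.06, adjusted p = 1.54e-05). None of the 98 falls was called lower at 1 h, where 11 genes in all were, 0.0834% of those tested. Between 10 h and 24 h, 31 of the rises were called lower, 20.3%, beside 1.17% of all tested genes, among them Fkbp5 (-0.26, adjusted p = 0.0481) and Strip2 (-0.93, adjusted p = 0.000285). Another 5 were called higher, 3.27% beside 0.993% of all tested genes: Hp, Ms4a4b, F13a1, Jdp2 and Man2a1. F13a1 alone gained 2.41 over that interval. Of the falls, 6 were called higher at 24 h than at 10 h, 6.12% beside 0.993% of all tested genes: Slc40a1, Rapgef5, St18, Cysltr1, Bcl2 and Mcm2. Gpr84 and Clec7a were called lower, 2.04% of the falls beside 1.17% of all tested genes. Clec7a went on down, with means of 7.88 at 4 h, 6.87 at 10 h and 6.38 at 24 h. Gpr84 instead had its lowest mean at 4 h (6.52) and its highest at 10 h (7.6). Its mean was 7.21 at 24 h, beside 7.44 at baseline.

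**Figure D5:**
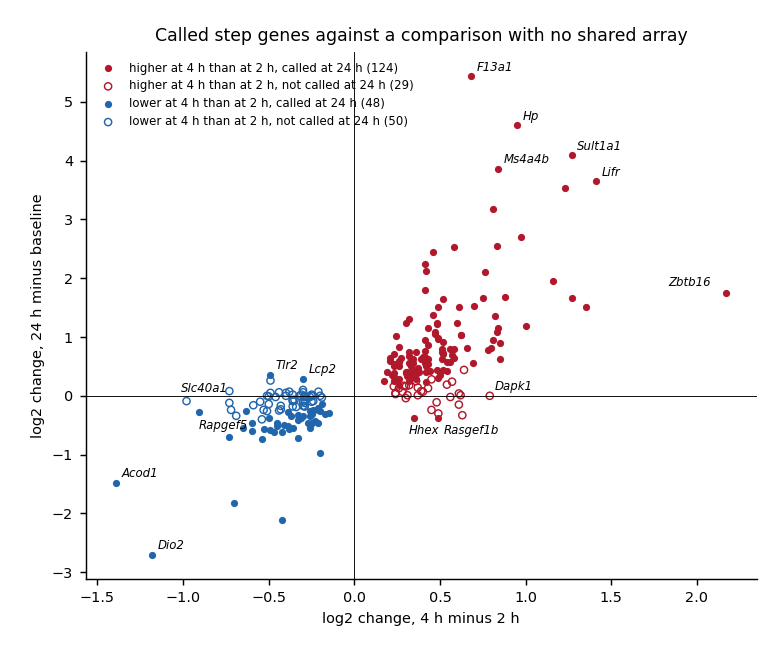
Each point is 1 of the 251 called genes, with the log2 change from 2 h to 4 h on the horizontal axis and the log2 change from baseline to 24 h, which shares no array with the step, on the vertical axis; filled points were called at 24 h. Most rises lie above 0 at 24 h (143 of 153) and most falls below (83 of 98), with Tlr2, Lcp2, Rasgef1b and Hhex called the other way.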

How the data were processed

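RNA from 18 samples was hybridised to mouse Affymetrix arrays, 3 for each of 6 groups, and 6 of them form the step. Per the submitters' processing notes the authors used RMA with affy, with versions not given in the sources used here, and deposited linear intensity values (5.37 to 15224) for 45141 probe sets. Genome build and annotation release are not given there. Probe sets were named through the platform annotation: 28898 have 1 symbol, 551 several and 15588 none. In baseline replicate 1 a run of 211 probe sets holds evenly stepped values, so these were left out on all arrays (150 named genes, 77 of them with no other probe set).

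Log2 intensities of the brightest probe set per gene were kept where 3 arrays reached their array's 40th percentile, leaving 13190 genes. limma 3.58.1 in R 4.3.3 (lmFit, 1 mean per group over all 18 arrays, eBayes with intensity trend) gave log2 changes, standard errors and two-sided p-values, adjusted by Benjamini-Hochberg over all tested genes at 0.05. The number of arrays limits precision. Simulated arrays took the means and spreads of the 13190 genes, with noise independent between arrays. There the fit recovered 24%, 64%, 96% and 100% of 50 genes changed by 0.25, 0.5, 1 and 2. Of its 150 calls, 8 were genes left unchanged. Deviations shared between arrays were not simulated. Members, lists and motifs were chosen with earlier results of these data known. Named are the 12 largest rises and falls with non-overlapping arrays, up to 4 called genes per list, 5 check genes, 3 macrophage markers and the largest changes called the opposite way at 1 h or 24 h. Dapk1, Sla, Hba-a1 and genes given as examples were named after their values were seen. Same-numbered arrays of 2 h and 4 h deviated together with r = 0.09, 0.15 and 0.16, and different-numbered ones with r = -0.12 to -0.02. The labels do not say that a number marks a pair, and the main fit did not pair the arrays.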

Additional observations from a re-analysis of the deposited data

Results flagged for a closer look

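Probe sets with no gene symbol lie outside the comparisons above. Of 9966 that were tested in 1 fit over all probe sets, 125 were called between 2 h and 4 h (limma, adjusted p under 0.05), 45 higher and 80 lower, which is 1.25% beside 1.19% of 21527 probe sets with a symbol. Of the 125, 120 lay above background at 2 h or 4 h. The largest rise was that of 1442025_PM_a_at, from 4.58, 4.52 and 4.70 to 6.99, 7.26 and 7.21 (2.55 ± 0.15, SE, adjusted p = 1.5e-10), followed by 1419874_PM_x_at (2.50 ± 0.22). Both exceeded the change of Zbtb16, the largest among genes with a symbol. The largest fall was that of 1456855_PM_at, from 5.99, 6.02 and 5.49 to 4.74, 4.37 and 4.63 (-1.25 ± 0.18, adjusted p = 0.000346). None was named here, and whether any of them belongs to a gene tested above, Zbtb16 included, was not tested.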

How the results depend on the processing

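Leaving out single arrays gave 137 to 168 called genes, 83 to 113 rises, 46 to 76 falls and 34 to 44 called list genes, against 251, 153, 98 and 58. Without an intensity trend the counts were 129, 83, 46 and 34, with ACANNNTGT in 5.88% of windows of rises. With the probe set of largest variance they were 142, 93, 49 and 35, with the mean of all probe sets 157, 98, 59 and 30, and against a 1.2-fold change 20, 14, 6 and 9. With each array centred on its median 63 genes fell. A fit of only the 6 arrays of 2 h and 4 h, without a block, gave 206, 138, 68 and 56, and kept 74.5% of the calls. A replicate block gave 500 called genes (253 and 247, 122 in lists), of which 250 were among the 251; on the 6 arrays alone, added after the data were seen, it gave 497 (258 and 239, 127 in lists). With the block 10 of the 28 cholesterol and fatty acid synthesis genes were called lower, against none without it, and their list mean differed by -0.20, -0.22 and -0.18 between same-numbered arrays. Each array correlated best with its own number, a hint from the data and not from the labels. The share of rises also higher at 24 h and of falls also lower stayed within 1.5 times under every setting that gave them. Of the 74 called named genes, 27 kept their call in every setting that tested them other than the 1.2-fold test, which was 17 settings, and 16 for Strip2. Under the probe set of largest variance Dock8 read 0.02, Fabp4 -0.66, Klf3 -0.02 and Nr3c1 0.03. Genes with no call near 0 changed sign without single arrays: Cd68 read 0.01 and 0.002, Csf1r -0.05 to 0.002 and Dusp1 -0.06 to 0.12. The causes were not tested. Changes near the background level of 3.86 may be understated, and changes of 0.25 were mostly missed in the simulation.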

Other observations

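A pair of called genes outside the lists also acts on the cytoskeleton and adhesion, like Fmnl2, and was picked out after their values were seen. Tmod1, which caps the pointed ends of actin filaments, measured 8.14, 8.14 and 8.12 at 2 h and 8.97, 8.99 and 8.92 at 4 h, a rise of 0.83 ± 0.07 (SE, limma adjusted p = 4.72e-08). Tns1, a tensin that links integrins to actin, went from 8.27, 8.12 and 8.07 to 8.89, 8.95 and 9.08 (0.82 ± 0.08, adjusted p = 8.95e-07). At 24 h against baseline both genes were higher, by 1.08 and 1.35.

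Neat1, a nuclear long non-coding RNA, had the largest change without a call, from a mean of 10.15 at 2 h to 9.16 at 4 h (-0.99 ± 0.27, adjusted p = 0.0616).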
